A study of Mus musculus with 12 samples.

Results

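The 10 genes described here are *Acp5*, *Ctsk*, *Atp6v0d2*, *Ocstamp*, *Dcstamp*, *Oscar*, *Calcr*, *Nfatc1*, *Tnfrsf11a* and *Tnfsf11*, which make up the osteoclast programme and the RANK signalling axis that drives it. They were picked by gene symbol from a count table of 18996 mouse genes. All 10 were found there and all 10 passed the filter on low counts that left 14765 genes. The choice was made with the levels of these genes in the same mice already known, so their values in the 3 group comparisons are given as a description and not as a test.

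Osteoclasts are large multinucleated cells that dissolve bone. They form when precursors of the monocyte and macrophage lineage, kept alive by the cytokine M-CSF, meet RANKL, the product of *Tnfsf11*, which binds its receptor RANK, the product of *Tnfrsf11a*. Osteoprotegerin, the product of *Tnfrsf11b*, is a soluble decoy that takes RANKL away from RANK. RANK signalling and calcium signals from immune co-receptors such as OSCAR together raise the transcription factor NFATc1, which turns on the genes for cell fusion (*Dcstamp*, *Ocstamp*), acid secretion (*Atp6v0d2*) and matrix digestion (*Ctsk*, *Acp5*). *Calcr* encodes the receptor for calcitonin, a hormone that halts the resorbing cell. *Acp5* and *Ctsk* are also transcribed by other macrophages, and *Ctsk* by fibroblasts, so neither gene alone marks an osteoclast.

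Polyadenylated RNA of mouse tissue from beside the spine was sequenced in 12 mice from a study of the tissue repair that follows opening of the spinal canal, with 4 mice per group and the groups named No operation, SHAM and Laminectomy. The mice were BALB/c, 5 to 7 weeks old when obtained and of both sexes in the study, with no allele or agent named in the labels beyond the operation, and the labels do not give the sex of each mouse. SHAM mice had the soft tissue beside the spine removed with the bone left whole, Laminectomy mice also lost the bony laminae from thoracic vertebra 12 to lumbar vertebra 2, and tissue was taken on day 7 after surgery. No operation samples were labelled soft tissue from beside the spine, whereas those of both operated groups were labelled scar tissue. The effect of surgery and the kind of tissue taken therefore cannot be told apart in a comparison with No operation mice. The methods of the study give 3 mice per group and do not name them, so all 4 were used here.

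Library totals lay between 16802989 and 18077868 counts. The labelled soft tissue was rich in muscle in the No operation group, where 10 genes of mature muscle fibres summed to 102831 to 145828 CPM (counts scaled to a common library size after TMM normalization), against 2446 to 9153 CPM in SHAM and 3032 to 13558 CPM in Laminectomy mice. Individual mice also stood apart. Within the No operation group, mouse 2 had the highest level of 9 of the 10 genes and mouse 1 of the other, *Tnfrsf11a*. That same No operation mouse 2 had 607 CPM summed over 10 osteoblast and osteocyte markers, where the other 3 mice had 20.5 to 185 CPM, and 3032 CPM over 8 marrow granulocyte markers, where the others had 22.3 to 1092 CPM. SHAM mouse 1 was the lowest of its group for 8 of the 10 genes, and Laminectomy mouse 1 was the highest of its group for 8 of the 10.

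The 10 genes lie on 10 different chromosomes, so none is a neighbour of another. In RefSeq on build GRCm38.p6, start sites with 250 upstream bases were at hand for 6 of the 10 genes (*Tnfrsf11a*, *Ctsk*, *Calcr*, *Oscar*, *Acp5* and *Tnfsf11*), in 9 windows, and not for *Ocstamp*, *Dcstamp*, *Atp6v0d2* and *Nfatc1*. Windows of 4 genes are printed because 3 of them (*Oscar*, *Acp5* and *Ctsk*) were higher in Laminectomy than in SHAM mice and *Tnfsf11* had overlapping levels in both. Each runs 5′ to 3′ on the gene's own strand and ends just before the start site. Capitals mark matches to motifs, read on both strands, none of which overlap in the printed windows. The core that NFAT factors can bind was searched as GGAAA. AP-1, the dimer of Fos and Jun proteins, was searched as its element TGANTCA. MITF and TFE factors were given by their E-boxes, of which the first had the letters CACGTG. For the other E-box the letters were CATGTG on the strand read.
*Oscar*, chr7:3616158-3616407, minus strand: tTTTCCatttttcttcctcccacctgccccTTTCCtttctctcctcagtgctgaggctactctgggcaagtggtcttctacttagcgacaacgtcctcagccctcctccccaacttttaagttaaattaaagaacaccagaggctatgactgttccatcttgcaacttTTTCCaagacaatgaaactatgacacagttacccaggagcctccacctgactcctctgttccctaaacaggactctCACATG
*Acp5*, chr9:22135747-22135996, minus strand, the most upstream of its 3 windows: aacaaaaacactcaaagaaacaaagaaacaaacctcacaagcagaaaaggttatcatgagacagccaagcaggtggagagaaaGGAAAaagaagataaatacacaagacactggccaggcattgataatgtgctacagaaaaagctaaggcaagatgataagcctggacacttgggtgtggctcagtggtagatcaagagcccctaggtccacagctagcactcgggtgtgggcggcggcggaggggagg
*Ctsk*, chr3:95498960-95499209, plus strand: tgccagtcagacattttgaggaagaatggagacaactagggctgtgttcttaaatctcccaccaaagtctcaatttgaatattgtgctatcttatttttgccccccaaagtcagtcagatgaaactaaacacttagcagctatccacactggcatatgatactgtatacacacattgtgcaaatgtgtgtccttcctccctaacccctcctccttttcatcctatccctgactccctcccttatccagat
*Tnfsf11*, chr14:78308044-78308293, minus strand: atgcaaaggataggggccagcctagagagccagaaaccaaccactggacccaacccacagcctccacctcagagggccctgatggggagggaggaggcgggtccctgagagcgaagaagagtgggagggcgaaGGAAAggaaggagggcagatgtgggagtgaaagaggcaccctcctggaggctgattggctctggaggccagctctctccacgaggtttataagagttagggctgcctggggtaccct

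The *Oscar* window held 3 NFAT cores, each on the opposite strand, and 1 E-box of the second kind, also on the opposite strand, the printed *Acp5* window 1 NFAT core, the *Tnfsf11* window 1 NFAT core and the *Ctsk* window no match to any of the motifs. Over all 32851 windows of this length, 55.6% held the NFAT core, 6.75% the AP-1 element, 6.02% the first E-box and 12.3% the second. The matches are letters in a short window and do not show that a factor was bound.

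Compared per length of exon (CPM per kilobase of the merged exons in the GRCm38 annotation), *Ctsk* had the highest level of the 10 genes in each group and *Acp5* the second highest. In Laminectomy mice these levels were 749 ± 281 CPM per kilobase for *Ctsk* and 223 ± 92.3 for *Acp5* (SD, n = 4), followed by *Atp6v0d2* at 38.1 ± 11.4 and *Nfatc1* at 19.2 ± 6.30. *Calcr* was the lowest in that group at 0.539 ± 0.163 CPM per kilobase. All other levels below are in CPM without division by length and are compared only between mice for the same gene.

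**Figure D1:**
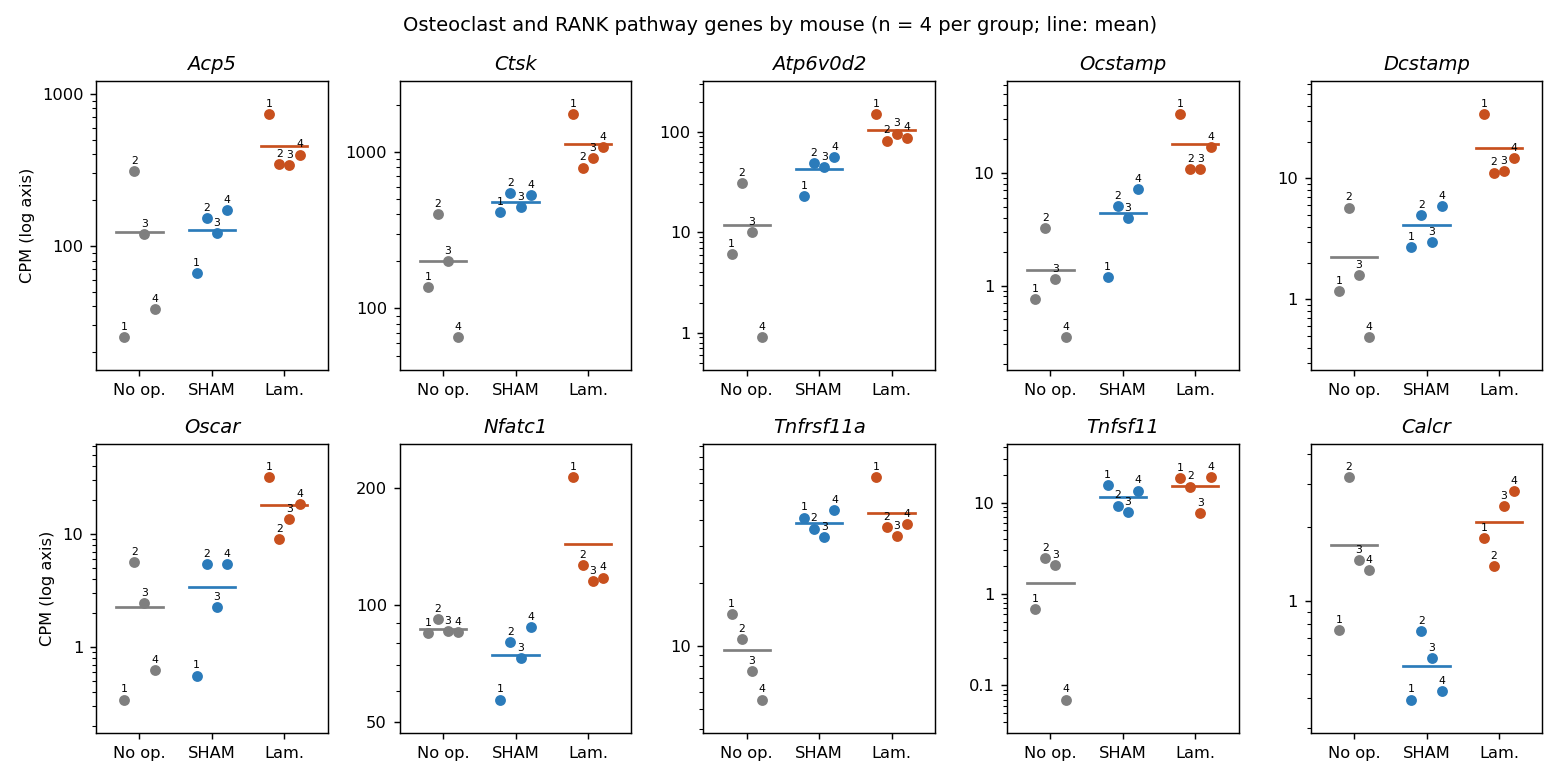
Level of each of the 10 genes in every mouse, as CPM on a log axis that differs between panels. Each point is 1 mouse with its number, the horizontal line is the mean of 4 mice, and the groups are No operation (No op.), SHAM and Laminectomy (Lam.). For 8 genes the 4 Laminectomy mice lie above the 4 SHAM mice. For *Tnfrsf11a* and *Tnfsf11* the ranges of the operated groups overlap and lie above the No operation mice.

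The ligand and the receptor were higher after either operation, and their levels overlapped between the operations. *Tnfsf11* (chromosome 14, 78277445 to 78308043, minus strand, GRCm38), which encodes RANKL, measured 0.689, 2.46, 2.06 and 0.0701 CPM in mice 1 to 4 of the No operation group, 15.4, 9.25, 7.84 and 13.5 CPM in the SHAM group and 18.4, 14.96, 7.72 and 19.0 CPM in the Laminectomy group. Every operated mouse was above every No operation mouse, the lowest of which held a single count, and the ranges of SHAM and Laminectomy overlapped. The log2 fold change of *Tnfsf11* was 3.10 ± 0.614 (SE) between SHAM and No operation, 3.49 ± 0.619 between Laminectomy and No operation, and 0.39 ± 0.537 between Laminectomy and SHAM. *Tnfrsf11a* (chromosome 1, 105780718 to 105847981, plus strand), which encodes RANK, was at 14.2, 10.8, 7.59 and 5.54 CPM in No operation, 41.0, 36.3, 33.0 and 44.5 CPM in SHAM and 64.0, 37.0, 33.6 and 38.1 CPM in Laminectomy mice. Its 3 lower Laminectomy mice fell inside the SHAM range and only Laminectomy mouse 1 was above it. The log2 fold changes of *Tnfrsf11a* were 2.02 ± 0.285 for SHAM and 2.18 ± 0.286 for Laminectomy, each against No operation, and 0.16 ± 0.269 between the operations. Taken as the estimate with 2 SE on either side, the difference between the operations ran from -0.38 to 0.69 for *Tnfrsf11a* and from -0.69 to 1.46 for *Tnfsf11* on the log2 scale.

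The decoy receptor was not called in any comparison. *Tnfrsf11b*, which is not among the 10 genes, was at 3.72 to 10.1 CPM in No operation, 5.79 to 13.1 CPM in SHAM and 6.78 to 12.7 CPM in Laminectomy mice, with none of its changes past the test (adjusted p = 0.789, 0.377 and 0.739 for SHAM against No operation, Laminectomy against No operation and Laminectomy against SHAM; edgeR quasi-likelihood test, with p-values adjusted by Benjamini-Hochberg over all genes tested). The ratio of *Tnfsf11* to *Tnfrsf11b* counts in the same mouse was 0.0189 to 0.262 in No operation, 0.937 to 2.66 in SHAM and 0.842 to 2.80 in Laminectomy mice. The ratio was thus above every No operation value in all 8 operated mice, with the SHAM and Laminectomy ranges overlapping. It was not divided by gene length and says nothing of the number of molecules of each.

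*Nfatc1* (chromosome 18, 80606205 to 80713071, minus strand), the transcription factor on which RANK and co-receptor signals meet, was at 84.8, 91.9, 85.9 and 85.2 CPM in No operation, 57.2, 80.2, 73.0 and 87.9 CPM in SHAM and 214, 127, 115 and 118 CPM in Laminectomy mice. It was the steadiest of the 10 genes among No operation mice, with a coefficient of variation of 3.86%, and all 4 Laminectomy mice were above the other 8. Its log2 fold changes were -0.22 ± 0.195 for SHAM and 0.72 ± 0.195 for Laminectomy against No operation and 0.94 ± 0.196 between Laminectomy and SHAM. The last of these was 0.69 without Laminectomy mouse 1, 0.84 without SHAM mouse 1 and 0.57 without both. The omission of both mice was chosen after the data were seen. *Nfatc1* is also transcribed in other cells, among them T cells and vascular and muscle cells.

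Both fusion genes were low in No operation mice, intermediate in SHAM and highest in Laminectomy. *Dcstamp* (chromosome 15, 39745930 to 39760938, plus strand), which encodes the membrane protein needed for precursors to fuse, was at 1.17, 5.73, 1.60 and 0.491 CPM in No operation, 2.70, 4.97, 2.97 and 5.87 CPM in SHAM and 33.8, 11.2, 11.6 and 14.6 CPM in Laminectomy mice. *Ocstamp* (chromosome 2, 165393760 to 165400405, minus strand), which encodes a related fusion protein, was at 0.758, 3.21, 1.13 and 0.350 CPM in No operation, 1.18, 5.08, 3.97 and 7.21 CPM in SHAM and 32.9, 10.7, 10.8 and 17.0 CPM in Laminectomy mice. For both genes the Laminectomy mice were above all others, while SHAM and No operation overlapped through No operation mouse 2. Between Laminectomy and SHAM the log2 fold changes were 2.11 ± 0.619 for *Dcstamp* and 2.03 ± 0.633 for *Ocstamp*, and between SHAM and No operation they were 0.86 ± 0.632 and 1.66 ± 0.673. The counts of *Ocstamp* ran from 5 to 51 per No operation mouse, from 21 to 135 per SHAM mouse and from 208 to 622 per Laminectomy mouse.

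*Oscar* (chromosome 7, 3609813 to 3616157, minus strand), the co-receptor that binds collagen and passes a calcium signal through an adaptor, was at 0.345, 5.67, 2.46 and 0.631 CPM in No operation, 0.562, 5.46, 2.28 and 5.44 CPM in SHAM and 31.9, 9.05, 13.5 and 18.6 CPM in Laminectomy mice. The No operation and SHAM mice spanned almost the same range, and the lowest Laminectomy mouse was above it. In the fit of all 12 mice the log2 fold change of *Oscar* between Laminectomy and SHAM, 2.41 ± 0.801, was the largest of the 10 genes. A larger one was found for 0.82% of the genes tested. With 1 mouse left out it ran from 1.99 to 2.72 for *Oscar* and from 1.78 to 2.15 for *Calcr*, ranges that overlap.

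The genes of acid secretion and matrix digestion were higher in each Laminectomy mouse than in each mouse of the other groups. *Acp5* (chromosome 9, 22126727 to 22135711, minus strand), which encodes the tartrate-resistant acid phosphatase used to stain osteoclasts, was at 25.2, 312, 119 and 38.3 CPM in No operation, 66.1, 152, 122 and 172 CPM in SHAM and 732, 346, 338 and 398 CPM in Laminectomy mice. Its No operation and SHAM means were nearly equal, at 124 ± 132 and 128 ± 46.1 CPM, with No operation mouse 2 alone above every SHAM mouse, and the Laminectomy mean was 453 ± 187 CPM (SD, n = 4). An antisense transcript shares 137 exon bases with *Acp5*, and featureCounts at the default settings named by the methods ignores strand, so reads of the pair cannot be told apart. The log2 fold change of *Acp5* was 0.05 ± 0.651 between SHAM and No operation and 1.83 ± 0.670 between Laminectomy and SHAM. The first of these was 1.07 without No operation mouse 2 and 2.01 without No operation mice 2 and 3, the second choice being made after the data were seen.

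*Ctsk* (chromosome 3, 95499256 to 95509362, plus strand), the protease that cuts collagen in the resorption pit, was at 137, 402, 201 and 65.8 CPM in No operation, 412, 548, 444 and 529 CPM in SHAM and 1746, 796, 912 and 1075 CPM in Laminectomy mice. The 3 groups of *Ctsk* did not overlap, although No operation mouse 2 and SHAM mouse 1 were close. *Atp6v0d2* (chromosome 4, 19876841 to 19922605, minus strand), the proton pump subunit that osteoclasts use in place of the widespread *Atp6v0d1*, was at 6.06, 30.7, 10.1 and 0.911 CPM in No operation, 23.0, 48.5, 44.3 and 56.3 CPM in SHAM and 149, 81.7, 95.8 and 87.4 CPM in Laminectomy mice. The Laminectomy mice of *Atp6v0d2* were above all others, and No operation and SHAM overlapped through No operation mouse 2. The log2 fold changes between SHAM and No operation were 1.26 ± 0.446 for *Ctsk* and 1.85 ± 0.680 for *Atp6v0d2*, and those between Laminectomy and SHAM were 1.23 ± 0.445 and 1.27 ± 0.655. The ratio of *Atp6v0d2* to *Atp6v0d1* counts was 0.0156 to 0.467 in No operation, 0.185 to 0.537 in SHAM and 0.913 to 1.36 in Laminectomy mice, so the Laminectomy mice were apart from both other groups for this ratio too.

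*Calcr* (chromosome 6, 3685680 to 3764714, minus strand) was the scarcest gene per length in both operated groups and had its lowest levels in SHAM. It was at 0.758, 3.21, 1.47 and 1.33 CPM in No operation, 0.393, 0.749, 0.583 and 0.427 CPM in SHAM and 1.80, 1.39, 2.43 and 2.82 CPM in Laminectomy mice, from 7 to 54 counts per mouse. All 4 SHAM mice were below the other 8, if only just below No operation mouse 1, and the No operation and Laminectomy ranges overlapped. The log2 fold changes were -1.64 ± 0.444 for SHAM against No operation, 0.31 ± 0.413 for Laminectomy against No operation and 1.96 ± 0.441 for Laminectomy against SHAM. *Calcr* is also a gene of quiescent muscle satellite cells. The summed level of 8 satellite cell markers was 155 to 204 CPM in No operation, 31.2 to 137 CPM in SHAM and 123 to 189 CPM in Laminectomy mice, and *Pax7*, the factor that defines these cells, was at 7.43 to 12.6, 0.506 to 9.07 and 7.15 to 12.5 CPM, none of the 8 markers being at 0 throughout a group. The part of satellite cells in the *Calcr* values was not tested.

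Between SHAM and No operation, 6 of the 10 genes were called by edgeR (adjusted p under 0.05 and absolute log2 fold change over 0.5), beside 50.8% of all 14765 genes tested. The 5 higher ones were *Ctsk*, *Ocstamp*, *Atp6v0d2*, *Tnfrsf11a* and *Tnfsf11*, where 25.7% of all genes were called higher, and the 1 lower was *Calcr*, where 25.1% were called lower. The count depended on single mice. It was 3 without No operation mouse 1, No operation mouse 3, SHAM mouse 2 or SHAM mouse 4. In each of these cases *Ctsk*, *Ocstamp* and *Atp6v0d2* were lost. The count was 4 without SHAM mouse 3 and 7 without No operation mouse 2. Fits without 1 mouse called 46.7% to 51.3% of all genes. Without No operation mouse 2 the log2 fold changes were 2.53 for *Ocstamp*, 2.92 for *Atp6v0d2*, 1.91 for *Dcstamp*, which was then called, and 1.57 for *Oscar*. *Tnfrsf11a*, *Tnfsf11* and *Calcr* remained called whichever single mouse was left out.

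Between Laminectomy and No operation, 9 of the 10 genes were called, all higher and all but *Calcr*, beside 24.2% of all genes called higher and 48.6% called in either direction. The same 9 had Laminectomy mice that did not overlap the No operation mice, as did 27% of all genes in that direction. Their log2 fold changes were 1.87 ± 0.672 for *Acp5*, 2.49 ± 0.464 for *Ctsk*, 3.11 ± 0.707 for *Atp6v0d2*, 3.69 ± 0.699 for *Ocstamp*, 2.97 ± 0.651 for *Dcstamp* and 2.99 ± 0.832 for *Oscar*, besides those given above. Without No operation mouse 2 they were 2.89 for *Acp5*, 3.07 for *Ctsk*, 4.18 for *Atp6v0d2*, 4.56 for *Ocstamp*, 4.02 for *Dcstamp* and 3.98 for *Oscar*. *Acp5* was no longer called without any one of No operation mice 1, 3 or 4 or Laminectomy mouse 1, and *Nfatc1* not without Laminectomy mouse 1. These comparisons with No operation share their control mice with those of SHAM.

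Between Laminectomy and SHAM, edgeR called 0 of the 10 genes and 0% of all genes tested. At an unadjusted p under 0.05 by edgeR 7 of the 10 were higher in Laminectomy (*Acp5*, *Ctsk*, *Calcr*, *Ocstamp*, *Dcstamp*, *Oscar* and *Nfatc1*), beside 6.95% of all genes, and none was lower. DESeq2 called 5 of the 9 genes to which it gave an adjusted p-value (*Calcr*, *Ocstamp*, *Dcstamp*, *Oscar* and *Nfatc1*; it gave none to *Atp6v0d2*), all higher, beside 1.8% of all genes. For 8 of the 10 genes, all but *Tnfrsf11a* and *Tnfsf11*, every Laminectomy mouse was above every SHAM mouse, as held for 5.05% of all genes. These shares describe genes that were chosen with this contrast in view and are no support for it. The percentage of tested genes with a larger log2 fold change was 0.82 for *Oscar*, 1.19 for *Dcstamp*, 1.29 for *Ocstamp*, 1.44 for *Calcr*, 1.68 for *Acp5*, 2.95 for *Atp6v0d2*, 3.02 for *Ctsk*, 4.5 for *Nfatc1*, 14.7 for *Tnfsf11* and 28.4 for *Tnfrsf11a*. Without the first SHAM and the first Laminectomy mouse the log2 fold changes of the 8 genes were smaller, from 0.57 for *Nfatc1* to 1.89 for *Calcr*, and that of *Tnfrsf11a* was -0.08. This pair of mice was chosen after the data were seen.

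**Figure D2:**
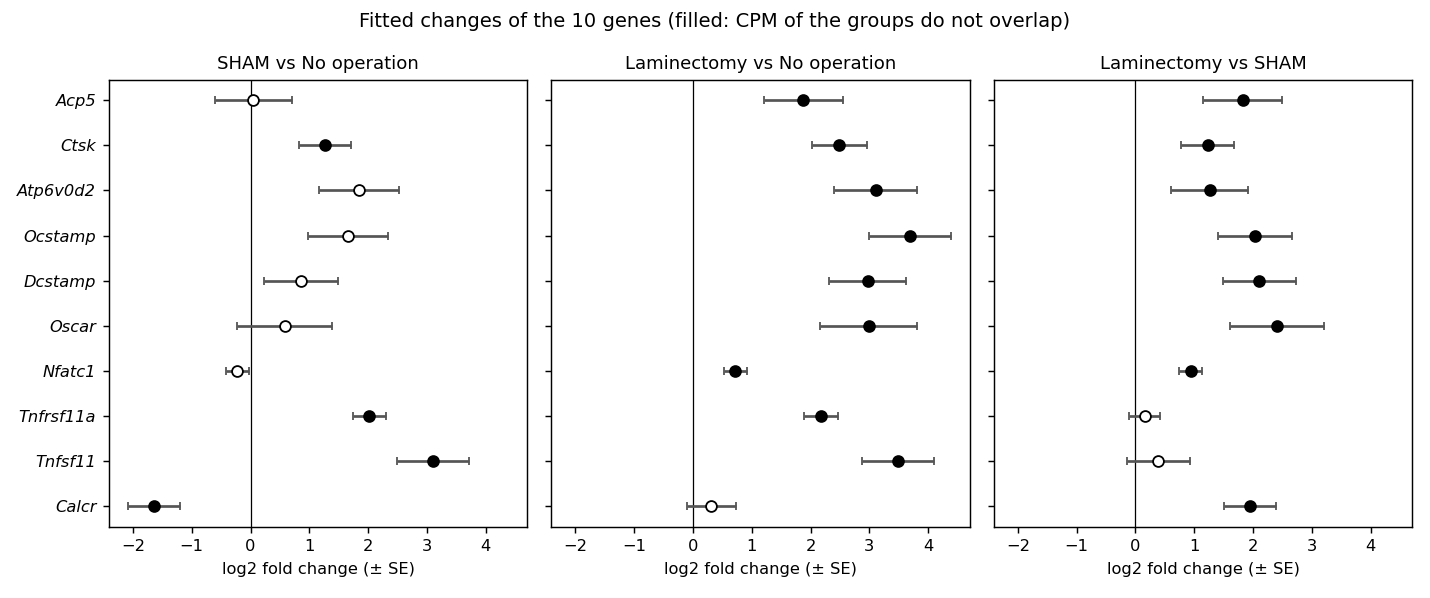
Fitted log2 fold change of each of the 10 genes in the 3 comparisons, with bars of 1 SE on either side from a single edgeR fit of 12 mice. Filled points are genes whose CPM values do not overlap between the groups compared; in Laminectomy against SHAM these are 8 genes, and the open points are *Tnfrsf11a* at 0.16 and *Tnfsf11* at 0.39.

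The bone markers of the same libraries were highest in the Laminectomy mice. The 10 osteoblast and osteocyte markers summed to 20.5, 607, 185 and 40.6 CPM in No operation mice 1 to 4, to 4.50, 125, 46.2 and 125 CPM in SHAM and to 1832, 1795, 732 and 655 CPM in Laminectomy mice. Every Laminectomy mouse was above every other mouse for this sum, as for *Acp5*, *Ctsk*, *Atp6v0d2*, *Ocstamp*, *Dcstamp*, *Oscar* and *Nfatc1*, and none of the 10 markers was at 0 throughout a group. *Ibsp*, the most abundant of the list and a protein of mineralising matrix, was at 0.482 to 224 CPM in No operation, 0.393 to 96.9 CPM in SHAM and 501 to 1499 CPM in Laminectomy mice. Of the 10, edgeR called 0 between Laminectomy and SHAM, while 9 were higher at an unadjusted p under 0.05, beside 6.95% of all genes, and 8 did not overlap, beside 5.05%. The mouse with the highest osteoblast sum was the highest for 9 of the 10 genes in the No operation group, 3 in SHAM and 8 in Laminectomy, and SHAM mouse 1 was the lowest of its group for the sum and for 8 genes. Laminectomy mouse 2, close to mouse 1 in the sum, was the lowest of its group for 6 of the 10 genes. Between the log2 osteoblast sum and the mean standardised log2 CPM of *Acp5*, *Ctsk*, *Ocstamp*, *Dcstamp*, *Oscar* and *Atp6v0d2*, Pearson's r was 0.79 over the 12 mice, which share the differences between groups, and 0.84 after each group was centred on its own mean. The same 2 values were 0.70 and 0.83 for B cell, 0.59 and 0.72 for marrow granulocyte and 0.87 and 0.69 for microglia markers. For macrophage markers they were 0.53 and 0.03, for dendritic cell markers 0.71 and 0.33 and for T cell markers 0.65 and 0.43. Cartilage markers gave 0.16 and 0.36, and fibroblast markers 0.46 and -0.26. Satellite cell markers gave 0.04 and 0.20, and mature muscle fibre markers -0.63 and -0.13. All are a description of mice that also share their libraries. The part of bone in the tissue taken in the differences between groups was not tested, and in bulk RNA more cells of a type and more RNA per cell cannot be told apart.

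The other lists of marker genes give the cells around them. The 11 macrophage markers summed to 978 to 2387 CPM in No operation, 5544 to 9732 CPM in SHAM and 3922 to 5999 CPM in Laminectomy mice, so that they were lower in Laminectomy than in SHAM in 8 of 11 cases at an unadjusted p under 0.05, beside 9.03% of all genes, with none called by edgeR. The ratio of *Acp5* to *Csf1r* counts was 0.0629 to 0.308 in SHAM and 0.797 to 1.27 in Laminectomy mice, and that of *Ctsk* to *Csf1r* 0.392 to 1.07 and 1.93 to 3.02, with no overlap in either. In No operation mice both ratios were widely spread, at 0.0986 to 1.86 and 0.514 to 2.40. The ratio of *Tnfrsf11a* to *Csf1r* was 0.0423 to 0.0643 in No operation, 0.0391 to 0.0796 in SHAM and 0.0791 to 0.111 in Laminectomy mice, where only the highest SHAM and the lowest Laminectomy mouse overlapped. *Csf1r* shares 873 exon bases with a gene on the other strand, *Hmgxb3*, and the handling of reads from that stretch may bias its counts.

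Marrow granulocyte markers summed to 22.3 to 3032 CPM in No operation, 5.002 to 622 CPM in SHAM and 272 to 2102 CPM in Laminectomy mice and overlapped throughout. Cartilage markers summed to 141 to 855, 10.3 to 131 and 186 to 1204 CPM, with *Matn1* at 0 in all No operation mice, and between Laminectomy and SHAM all 9 of them that were tested were higher at an unadjusted p under 0.05, beside 6.95% of all genes, with 0 called by edgeR. B cell markers were at 2.10 to 57.9, 16.6 to 18.7 and 14.0 to 23.3 CPM, microglia markers at 87.8 to 156, 240 to 266 and 279 to 363 CPM, dendritic cell markers at 49.2 to 86.1, 217 to 284 and 208 to 307 CPM, and T cell markers at 3.65 to 7.87, 16.7 to 24.5 and 13.6 to 26.3 CPM. The microglia sum, like the osteoblast sum, was higher in every Laminectomy mouse than in every other mouse. Fibroblast markers summed to 4942 to 15404, 29002 to 39539 and 18877 to 27342 CPM in the same order of groups. None of the 5 lists of B cells, microglia, dendritic cells, T cells and fibroblasts had a marker at 0 throughout a group. The part of these cells in the values of the 10 genes was not tested.

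**Figure D3:**
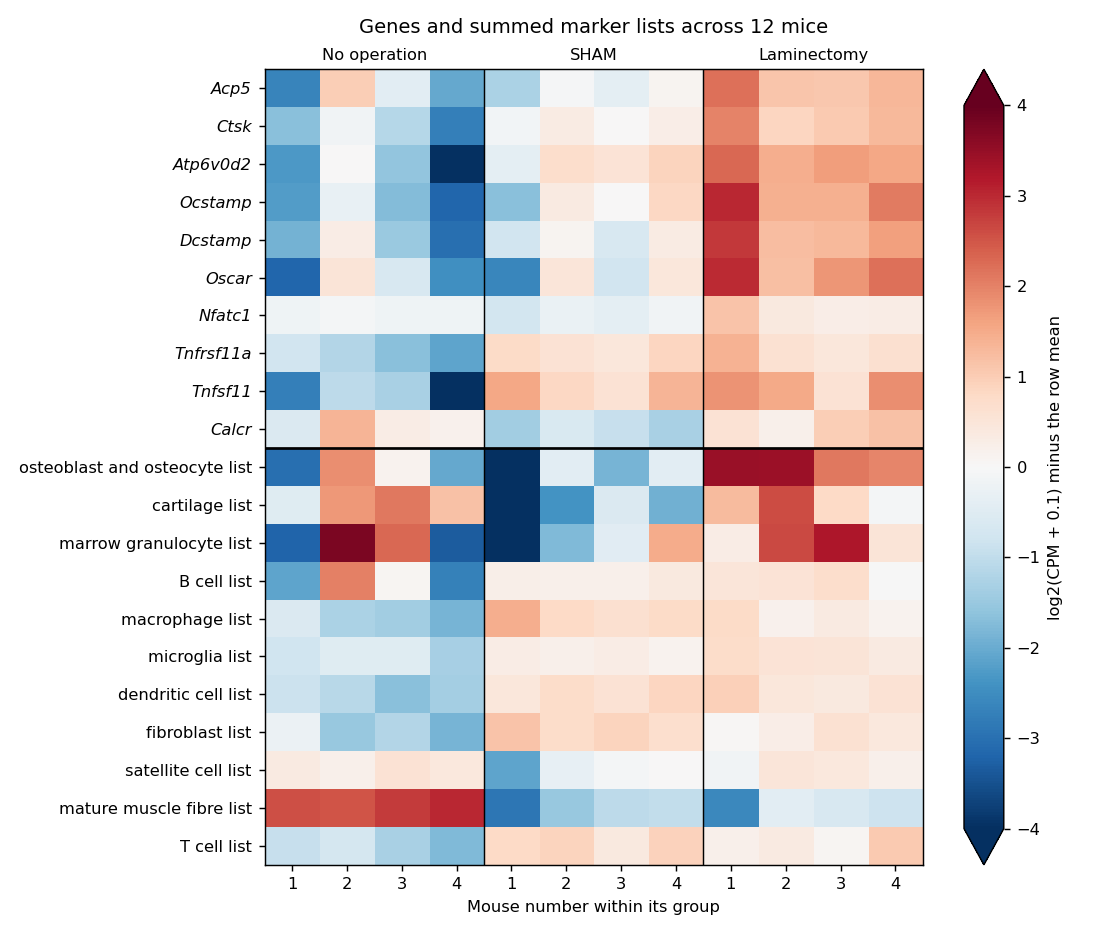
Heat map of the 10 genes (upper rows) and 11 summed marker lists (lower rows) in the 12 mice, as log2(CPM + 0.1) minus the mean of the row. Red is above and blue below the row mean, colours stop at 4 on either side, and vertical lines part the groups; the *Acp5* to *Oscar* rows are reddest in Laminectomy mouse 1, the osteoblast and osteocyte row in Laminectomy mice 1 and 2, and the macrophage row in SHAM mouse 1.

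Other genes of the pathway, from a list of 123 genes in 9 roles that leaves out the 10, gave a wider view. Against No operation, 87 of the 123 (70.7%) were called in SHAM, 74 higher and 13 lower, and 85 (69.1%) in Laminectomy, 71 higher and 14 lower. Over all genes tested, 25.7% were called higher and 25.1% lower in SHAM, and 24.2% higher and 24.4% lower in Laminectomy, and the counts of each role below stand beside these shares. The median log2 fold change of the list was 0.82 in each comparison, where that of all genes tested was 0.00 and 0.01. Between Laminectomy and SHAM edgeR called 0 of the 123, and the median was -0.09. At an unadjusted p under 0.05 there were 11 higher and 24 lower in Laminectomy, beside 6.95% and 9.03% of all genes. DESeq2, which called 1.8% of all genes higher and 2.28% lower, called 3 higher (*Pth1r*, *Ppargc1b* and *Id3*) and 4 lower (among them *Il1a*, *Ptges* and *Slit3*), the genes being named because of these calls.

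Among 16 inducers and decoys of RANKL, 11 rose and 1 fell in SHAM and 10 rose and 2 fell in Laminectomy against No operation. *Il6*, a cytokine that raises RANKL in stromal cells, rose most, with log2 fold changes of 5.69 ± 0.836 (adjusted p = 0.000143, edgeR) and 5.41 ± 0.832 (adjusted p = 0.00023, edgeR). *Il11*, a related cytokine, was at 0.280 to 1.38 CPM in No operation, 1.80 to 2.35 CPM in SHAM and 1.45 to 6.43 CPM in Laminectomy mice and rose in both (edgeR adjusted p = 0.0178 and 0.00149). Of 19 genes of RANK signal transduction, 7 rose and 2 fell in SHAM and 4 rose and 2 fell in Laminectomy. *Nfkb2*, a subunit of the alternative NF-κB route, had the largest change of this role at 1.53 ± 0.206 in SHAM (adjusted p = 7.71e-05, edgeR), while *Traf6*, the adaptor that joins RANK to its kinases, stayed within 29.0 to 40.1 CPM over all mice and was not called (edgeR adjusted p = 0.677 and 0.19).

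Of 14 genes of co-stimulation and calcium signalling, 10 rose and 3 fell in SHAM and 8 rose and 3 fell in Laminectomy. *Tyrobp*, the adaptor DAP12, rose by 2.61 ± 0.332 in SHAM and 2.24 ± 0.328 in Laminectomy on the log2 scale (edgeR adjusted p = 5.45e-05 and 0.000167), and its partner receptor *Trem2* by 3.66 ± 0.540 and 3.22 ± 0.532 (edgeR adjusted p = 0.000149 and 0.000372). *Sirpb1a*, which signals through DAP12, had the largest change of the role, 3.83 ± 0.480 in SHAM (adjusted p = 4.97e-05, edgeR). *Siglec15*, a DAP12-linked receptor of osteoclasts, was at 0 to 4.09 CPM in No operation, 0.337 to 2.08 CPM in SHAM and 3.81 to 9.37 CPM in Laminectomy mice. Between both operations the log2 fold change of *Siglec15* was 2.37 ± 0.959, which did not pass the edgeR test (adjusted p = 0.256). Of 6 genes of the M-CSF axis, 4 rose and 2 fell in SHAM and 3 rose and 2 fell in Laminectomy. The M-CSF receptor *Csf1r* averaged 183 CPM in No operation, 675 CPM in SHAM and 451 CPM in Laminectomy mice (edgeR adjusted p = 0.000126 and 0.00151 against No operation), and its ligand *Csf1* rose in SHAM by 0.74 ± 0.156 (adjusted p = 0.00163, edgeR) and was 0.33 ± 0.155 higher in Laminectomy, which was not called.

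The 13 transcription factors had 9 that rose and 2 that fell in each operated group. *Fosl1*, an AP-1 subunit, changed most at 4.33 ± 0.933 in SHAM (adjusted p = 0.00185, edgeR). *Mitf*, a partner of the E-boxes searched above, was called in neither. Its change in SHAM, 0.48 ± 0.111 (adjusted p = 0.00301, edgeR), missed only the fold change limit, and that in Laminectomy was 0.18 ± 0.111 (adjusted p = 0.191, edgeR). Among 7 transcriptional brakes, 4 rose and 2 fell in SHAM and 5 rose and 1 fell in Laminectomy. *Irf8*, which holds back *Nfatc1* and is known to be lost as osteoclasts form, averaged 22.5, 72.7 and 50.3 CPM in No operation, SHAM and Laminectomy mice and rose in both operated groups (edgeR adjusted p = 0.00076 and 0.00769). *Prdm1*, a repressor of *Irf8* that is listed with the transcription factors, averaged 4.01, 17.6 and 26.9 CPM and also rose in both (edgeR adjusted p = 0.000554 and 0.000134). *Lilrb4a*, an inhibitory receptor, rose by 3.23 ± 0.453 in SHAM (adjusted p = 0.000103, edgeR).

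Of 14 fusion and adhesion genes, 9 rose and 1 fell in both operated groups. *Adam8* rose by 3.57 ± 0.594 in SHAM (adjusted p = 0.000337, edgeR). *Src*, the kinase needed for the ruffled border, rose by 1.36 ± 0.212 and 1.65 ± 0.213 (edgeR adjusted p = 0.000219 and 8e-05). *Itgb3*, the chain of the osteoclast vitronectin receptor, was at 17.4 to 114 CPM in No operation, 48.3 to 89.9 CPM in SHAM and 99.5 to 143 CPM in Laminectomy mice and did not pass the edgeR test against No operation (adjusted p = 0.624 and 0.0679) or between the operations (adjusted p = 0.426), though each Laminectomy mouse was above each SHAM mouse.

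Of 22 genes of acid secretion, 12 rose in SHAM and 13 in Laminectomy, and none fell by edgeR. *Tcirg1*, the proton pump subunit that is mutated in osteopetrosis, averaged 48.3, 226 and 222 CPM in No operation, SHAM and Laminectomy mice (edgeR adjusted p = 8.16e-05 and 0.000112 against No operation), and the operations differed by -0.03 ± 0.287 on the log2 scale, Laminectomy minus SHAM. *Clcn7*, the chloride exchanger, rose by 0.57 ± 0.125 and 0.61 ± 0.125 (edgeR adjusted p = 0.00217 and 0.00156) and *Atp6v0d1* by 0.71 ± 0.113 and 0.50 ± 0.113 (edgeR adjusted p = 0.000257 and 0.00264). *Ostm1*, the partner of *Clcn7*, was not called in either, at 0.34 ± 0.132 and 0.26 ± 0.132 (edgeR adjusted p = 0.0435 and 0.106). *Car2*, the carbonic anhydrase that supplies protons, was at 5.79 to 144 CPM in No operation, 2.64 to 25.7 CPM in SHAM and 29.8 to 127 CPM in Laminectomy mice. The difference between both operations was 2.39 ± 0.971 on the log2 scale, which edgeR did not call (adjusted p = 0.258). *Car2* is also abundant in red cells and their precursors. Among 12 matrix proteases and coupling factors, 8 rose in SHAM, and 10 rose and 1 fell in Laminectomy. *Ctss*, a cathepsin of macrophages, had the largest change at 3.25 ± 0.462 in SHAM (adjusted p = 0.000114, edgeR). *Mmp9*, the gelatinase of osteoclasts and neutrophils, was at 6.73 to 444 CPM in No operation, 241 to 516 CPM in SHAM and 637 to 1643 CPM in Laminectomy mice and rose in Laminectomy by 2.65 ± 0.966 (adjusted p = 0.0329, edgeR) but was not called in SHAM (adjusted p = 0.229, edgeR) or between the operations (adjusted p = 0.508, edgeR).

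**Figure D4:**
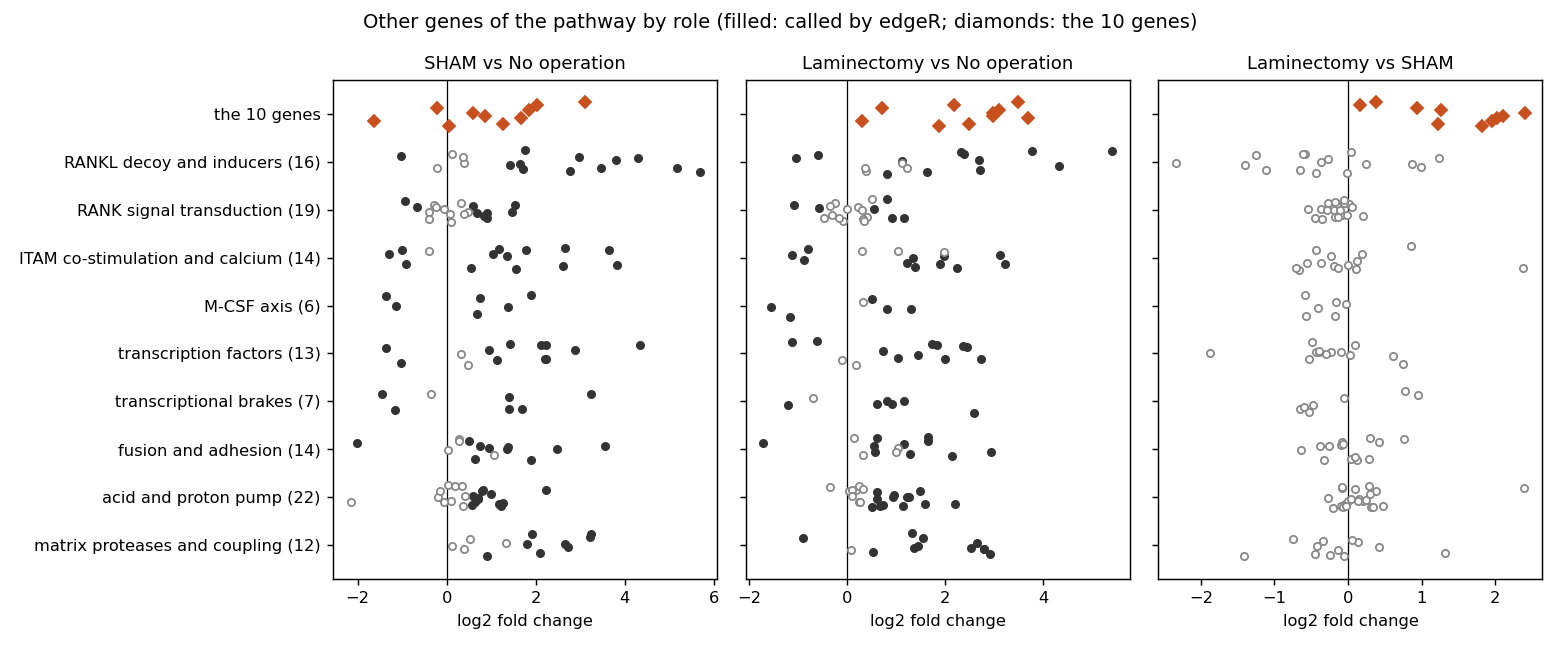
Log2 fold change of the 10 genes (diamonds) and of 123 other genes of the pathway in 9 roles (circles, number of genes in brackets) in the 3 comparisons. Filled circles were called by edgeR at an adjusted p under 0.05 and an absolute log2 fold change over 0.5; in Laminectomy against SHAM no circle is filled, and the 10 diamonds all lie above 0.

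The genes most like the osteoclast genes across mice were looked for among 14012 genes with a mean of at least 1 CPM. The profile was the mean standardised log2 CPM of the same 6 genes that were set against the marker sums (*Acp5*, *Ctsk*, *Ocstamp*, *Dcstamp*, *Oscar* and *Atp6v0d2*), and likeness was Pearson's r over 12 mice, which share the differences between the groups. The closest were *Rhbdl2*, *Rab38*, *Arsb*, *Dut* and *Bora*, with r from 0.963 to 0.976. *Arsb*, a lysosomal sulphatase, was at 34.8 to 85.3 CPM in No operation, 59.9 to 82.0 CPM in SHAM and 112 to 199 CPM in Laminectomy mice, and *Rhbdl2*, a rhomboid protease, at 0.140 to 1.45, 0.674 to 1.71 and 2.85 to 4.63 CPM. Both had Laminectomy mice above all others. After each group was centred on its own mean, which takes away the differences between groups, the closest were *Bora*, *Siglec15*, *Dut*, *Lpcat1* and *H2afx*, with r from 0.957 to 0.977. *Bora*, a regulator of mitotic kinases, and *Dut*, the enzyme that clears dUTP, were thus among the 5 closest in both, and *Siglec15* came from the pathway list. These values are those of the best of many genes over 12 mice and carry no test.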

How the data were processed

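Stranded mRNA libraries (TruSeq, paired reads) of 12 mice were aligned by the authors with STAR 2.6.1b to GRCm38 (mm10), counted with featureCounts 2.0.1 at default settings and tested with DESeq2 1.30.1, versions as the submitters' processing notes give them. The deposited table holds values per gene that are not normalized, of which 10.22% are not whole, so they were taken as estimated counts and rounded to whole numbers before testing. The design had assumed whole counts. All values of the 10 genes were whole. A step that makes fractions is not given in the sources used here.

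Genes were filtered with filterByExpr by group (4231 removed, 14765 kept), scaled with TMM and fitted for all 12 mice together with edgeR 4.0.16 (glmQLFit and glmQLFTest) in R 4.3.3, with calls at a Benjamini-Hochberg adjusted p under 0.05 and an absolute log2 fold change over 0.5. A standard error is the absolute log2 fold change divided by the square root of F. The common dispersion was 0.0799. Library totals were 16802989 to 18077868 counts per mouse, and precision was limited by the spread between 4 mice and, for the genes with fewest counts, by counting as well. DESeq2 1.42.0, other scalings, filters, a replicate block and leaving out mice were the alternatives. Replicates are separate mice per the labels, and no pair of libraries agreed within sampling noise.

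The 10 genes, the pathway and marker lists and the motifs were chosen with earlier results of these data known. Genes named besides the 10 came by rule: set genes of the pathway list and the called gene of largest change in each role, the most abundant marker of a list, *Pax7*, and the 5 genes of most similar profile. *Hmgxb3*, named as an overlap, and the genes named from the DESeq2 calls were added after their values were seen. Ratios between genes were also chosen then. Gene positions and exon lengths are from the GENCODE annotation of GRCm38. The values of 1 further gene of the DESeq2 calls are not reported here.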

Additional observations from a re-analysis of the deposited data

Results flagged for a closer look

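Within groups of 4 mice, 63 sets of values (the 10 genes and the 11 summed marker lists in each group) were searched for a mouse whose gap to the nearest other exceeded, as a share of the range, Dixon's critical value for 4 samples, and 7 were found. Chance alone flags about 1 in 20 such sets. In the Laminectomy group, mouse 1 was far above the others for 4 genes. It was at 732 CPM for *Acp5*, where the other 3 were at 338 to 398 CPM. For *Dcstamp* it was at 33.8 CPM against 11.2 to 14.6 CPM. For *Nfatc1* it was at 214 CPM against 115 to 127 CPM, and for *Tnfrsf11a* at 64.0 CPM against 33.6 to 38.1 CPM. In the No operation group *Nfatc1* was at 91.9 CPM in mouse 2 and at 84.8 to 85.9 CPM in the others, a gap that is large only beside their close agreement. The B cell marker sum of SHAM mouse 4 was 18.7 CPM beside 16.6 to 16.7 CPM in the others. The macrophage marker sum of SHAM mouse 1 was 9732 CPM, beside 5544 to 6216 CPM in the other SHAM mice.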

How the results depend on the processing

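With DESeq2, 601 genes were called between Laminectomy and SHAM, with 5 of the 10 genes and 7 of the pathway list, where edgeR called 0 of each. A log2 fold change limit of 1 left 4589 genes called for SHAM and 4323 for Laminectomy, each against No operation, in place of 7502 and 7183. Where at least 10 counts were asked of every mouse, 5 of the 10 genes were tested, of which 3 were called in SHAM and 5 in Laminectomy against No operation, beside 6555 and 6241 of all genes. With 1 mouse left out at a time, the 10 genes gave 3 to 7 calls in SHAM, beside 46.7% to 51.3% of all genes, and 7 to 9 in Laminectomy against No operation, beside 43.8% to 49.7%, the 7 in SHAM being without No operation mouse 2, and all such fits gave 0 calls between Laminectomy and SHAM. Of 615 log2 fold changes of the 10 genes under alternatives, 596 moved by less than 1 SD, 19 by more, and 6 changed sign, of which none was called. Of the 19, 16 came without No operation mice 2 and 3, chosen after the data were seen.

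Same-number correlations of deviations between groups ran from -0.23 to 0.35 and were over 0.1 in 7 of 12 pairs. For numbers 1 to 4 they were 0.20, -0.16, 0.15 and -0.23 between SHAM and No operation. Between Laminectomy and No operation they were 0.19, 0.07, 0.29 and 0.35, and between Laminectomy and SHAM 0.13, -0.13, 0.33 and -0.13. Pairs of different numbers ran from -0.45 to 0.35. Whether replicate numbers pair the mice was not tested. With a replicate block 7442, 7153 and 0 genes were called in SHAM and Laminectomy against No operation and between the operations, with 5, 9 and 0 of the 10 genes and 85, 85 and 0 of the pathway list. Counts were low for *Calcr* in all groups, at 7 to 54 per mouse, and for *Tnfsf11*, *Ocstamp* and *Oscar* in No operation mice.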
